A study of Mus musculus with 18 samples.

Results

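The uterus and the vagina of newborn mice whose mothers had received only oil were compared across all genes on the array. The comparison takes in 6 of the 18 samples of the series, 3 oil uterus and 3 oil vagina arrays, chosen by their organ and treatment labels alone. The mothers were ICR mice that had been injected with oil each day from fetal day 10 to 18, and RNA was taken on the day of birth, per the labels from 3 litters. Neither organ had been exposed to diethylstilbestrol (DES), the synthetic estrogen given at 67 µg per kg of maternal body weight to the other arm of the series. Whether an array holds 1 animal, 1 litter or a pool is not stated, so the p-values measure spread between arrays, which may be technical. That spread was estimated from all 17 arrays of the same chip type, those of oviduct and DES groups included. The arrays measured bulk RNA of each organ. Fewer cells of a type and less RNA per cell therefore cannot be told apart.

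In the female mouse embryo the Müllerian ducts give rise to the oviduct, the uterus and the upper vagina, while the lower vagina borders on the urogenital sinus, which is lined by endoderm. The Hox genes at the 5′ end of their clusters are expressed in an order along the duct, and the stroma under the epithelium helps to set whether that epithelium becomes columnar, as in the uterus, or stratified, as in the vagina. In the stratified state a basal layer under the control of p63, the product of Trp63, makes its own keratins and adhesion proteins.

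The organs differed in 547 of 22626 probe sets (2.42%) at an adjusted p below 0.05 by limma, an empirical Bayes linear model, with 186 higher in uterus (0.822%) and 361 higher in vagina (1.6%). Counted by gene, 381 of 12393 passed (3.07%), with 126 higher in uterus (1.02%) and 255 higher in vagina (2.06%). Of these, 327 also had Present calls on every array of the higher organ and no overlap between organs (2.64%), 112 of them higher in uterus and 215 in vagina. The largest differences lay on the vaginal side. More than 4-fold differences were found for 44 of the 215 genes and for 5 of the 112. Of those genes, 26 of the vaginal ones and 2 of the uterine ones had Absent calls on all 3 arrays of the lower organ. Present, Marginal and Absent are detection calls of the array software. Over all genes measured, 16.6% showed no overlap between the organs.

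In what follows, levels are scaled signals in arbitrary units, on which the trimmed mean of each array is 500, listed for arrays 1, 2 and 3 of each organ. A log2 difference is uterus minus vagina on the log2(signal + 32) scale ± its standard error, so negative values mean higher in vagina. Adjusted p-values come from the same limma fit with Benjamini-Hochberg adjustment over all probe sets. A fold given as "at least" is a lower bound, used where all 3 arrays of the lower organ were called Absent. A level of 1 gene is not set against that of another, since probes differ in brightness. Counts of calls in a gene list are to be read beside the shares of all genes. These were 3.07% in either direction, 1.02% higher in uterus and 2.06% higher in vagina.

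The 6 arrays were not run together. Arrays 1 and 2 of both organs were scanned on a first day and array 3 on a later one, and the array names give 19 days post coitum for array 3 where the others give day 0. With the scan day as a block, 1197 probe sets passed (5.29%), and 1157 with the replicate number as a block. Both sets held all 547. Within the first day 718 passed (3.17%). On that day the recorded hybridization runs went with the organ, so run and organ cannot be told apart there. On the second day both organs shared a run. Some arrays also carried transcripts of neighbouring tissues. Oil vagina array 1 held gut transcripts, with a summed signal of 18 gut genes of 9088 against 1229 and 705.5 on the other vagina arrays. Oil uterus array 2 held fewer (2655, against 1015 and 457 on the other uterus arrays). The summed signal of 8 bladder and urethra genes was also highest on oil vagina array 1. It was 7238, 2209 and 3083 in vagina and 1372, 1256 and 437 in uterus. Oil uterus array 3 held skeletal muscle transcripts, with a summed signal of 42 genes of 18668 against 4039.6 and 3779. The vagina arrays had 9103, 29854 and 26783. Of the 381 genes, 191 kept their call whichever of the 6 arrays was left out. Counts without oil vagina array 1 and without oil uterus array 3 are given beside the larger gene groups.

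The organ labels were checked against 5 marker genes each. All 5 vaginal markers, Hoxa13, Hoxd13, Trp63, Krt5 and Krt14, were higher in vagina. Of the uterine markers, Hoxa11 and Amhr2 were higher in uterus. Hoxa10 gave 2265, 1664 and 1278 in uterus and 819.8, 839 and 478 in vagina, with no overlap, but did not pass (log2 difference 1.25 ± 0.35, adjusted p = 0.0814). A fit blocked by scan day called it (adjusted p = 0.000357). Wnt7a, a Wnt ligand of the duct epithelium, read 635, 698 and 630.3 in uterus and 629, 452 and 441 in vagina. Its lowest uterus array and highest vagina array nearly met, and it did not pass (log2 difference 0.36, 95% confidence interval -0.42 to 1.15, adjusted p = 0.841, and 0.636 with the scan day as a block). Msx1, a homeobox gene of the duct, did not pass either (579.7, 619 and 514 in uterus and 413, 304 and 147 in vagina, adjusted p = 0.423, and 0.211 with the scan day as a block).

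Posterior Hox genes, which encode transcription factors of position along the body axis, were divided between the organs by their place in the cluster. Of 15 measured, 6 passed as higher in uterus and 2 as higher in vagina. Both of the latter belong to paralog group 13, the last of the cluster. Hoxd13 was near the bottom of the scale in uterus, with 7.47, 6.97 and 2.44 in uterus and 396, 377 and 365 in vagina (at least 7.12-fold higher in vagina, adjusted p = 8.89e-07). Its 3 uterus arrays were called Absent and its 3 vagina arrays Present. Hoxa13 read 132, 60.4 and 46.3 in uterus and 239.9, 317 and 306 in vagina (log2 difference -1.58 ± 0.32, adjusted p = 0.011). The organs did not overlap, though omitting single arrays ended the call of Hoxa13 for 3 of the 6 (adjusted p up to 0.0573, without uterus array 3). Hoxd12, the neighbour of Hoxd13, leaned to the vagina without passing (4.27, 10.5 and 24.4 in uterus and 137, 30.2 and 131 in vagina, adjusted p = 0.0609) and was called in the fit blocked by scan day (adjusted p = 0.032).

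The genes on the other side of Hoxd12 went the opposite way. Hoxd11, Hoxd10, Hoxd9 and Hoxd8 lie next to each other among the genes measured, and all of them were higher in uterus. Hoxd9 gave 1630.2, 2358 and 2122 in uterus and 376, 432 and 196 in vagina (log2 difference 2.54 ± 0.26, adjusted p = 2.85e-05). Hoxd10 gave 1924, 1805 and 1898 in uterus and 372, 334 and 489 in vagina (log2 difference 2.17 ± 0.28, adjusted p = 0.000286). Their uterus arrays all stood far above their vagina arrays. Hoxd8 gave 785, 828 and 810.2 in uterus and 282, 356 and 242 in vagina (log2 difference 1.38 ± 0.24, adjusted p = 0.00378). Hoxd11 was the weakest of the run, with 425, 582 and 439 in uterus and 217, 151 and 144 in vagina (log2 difference 1.35 ± 0.31, adjusted p = 0.0268), and omitting single arrays ended the call of Hoxd11 for 5 of the 6 (adjusted p up to 0.141, without uterus array 2). In the Hoxa cluster, Hoxa11, which the uterus needs for its stroma and glands, read 1621, 1639 and 1787 in uterus and 610.1, 520.2 and 374 in vagina (log2 difference 1.71 ± 0.23, adjusted p = 0.000319). Hoxa9 read 1795, 1760.1 and 1967 in uterus and 681, 701 and 542 in vagina (log2 difference 1.48 ± 0.16, adjusted p = 3.4e-05). Among 17 anterior Hox genes, Hoxa5 alone passed, with 605, 582 and 683 in uterus and 177, 132 and 166 in vagina (log2 difference 1.79 ± 0.24, adjusted p = 0.000302). In the oil oviduct, Hoxd13 stayed between 6.63 and 10.03, and Hoxa5 was between 1046 and 1354, above both other organs. Of the 8 posterior calls, 6 remained whichever array was left out. The posterior counts were 5 higher in uterus and 1 higher in vagina without oil uterus array 3, and 6 and 2 without oil vagina array 1.

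**Figure D1:**
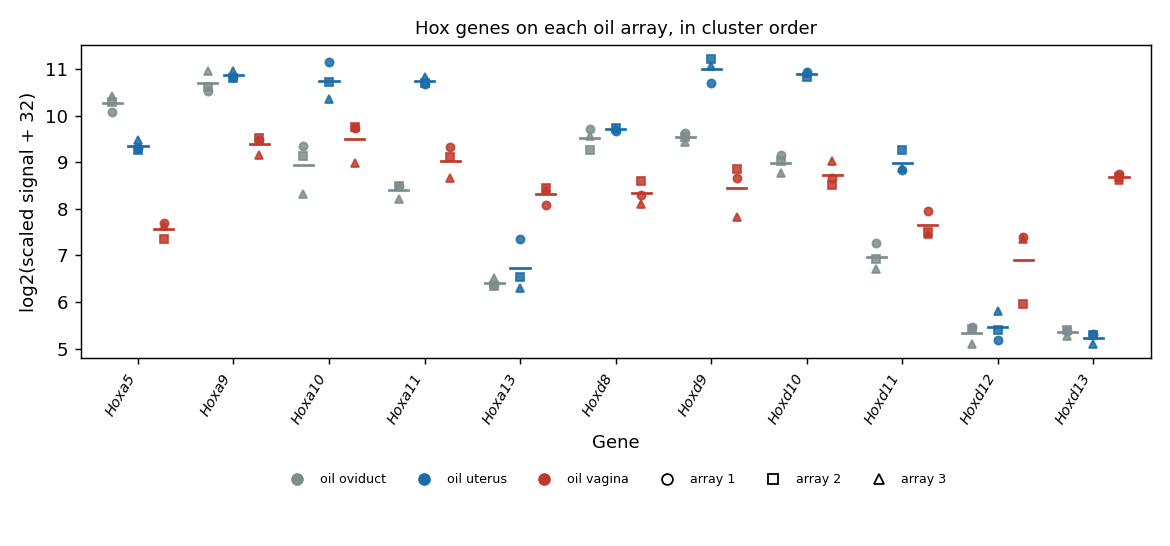
Scaled signal of 11 Hox genes on every oil oviduct, uterus and vagina array, on a log2(signal + 32) axis, in the order of the Hoxa and Hoxd clusters. Points are arrays, with symbols for the array number, and bars are group means; Hoxd8 to Hoxd11 stand higher in uterus than in vagina, and Hoxd13 reads 365 to 396 in vagina and 7.47 or less in uterus.

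Of 22 Wnt ligand and R-spondin genes, 3 passed, all higher in uterus, and of 24 inhibitors and targets 5 passed, all higher in vagina. Most members of both lists passed in neither direction. The median log2 difference of the inhibitors and targets was 0.0812, with 11 of the 24 negative, and with the scan day as a block 3 of them passed as higher in uterus and 5 as higher in vagina. None of 16 receptor genes passed by limma (1 at an unadjusted p below 0.05, 0 with the scan day as a block). Wnt4, a ligand needed for the Müllerian duct to form, read 1160.4, 1169.9 and 1376 in uterus and 313, 443 and 547 in vagina (log2 difference 1.47 ± 0.18, adjusted p = 0.000178). Rspo1, a secreted protein that strengthens Wnt signalling, read 306, 359 and 326 in uterus and 32.9, 121 and 12.7 in vagina (at least 4.71-fold higher in uterus, adjusted p = 0.000676). The gap between the organs was wider than the spread within either for both genes. Dkk2, which blocks the LRP co-receptors of Wnt, was higher in vagina with 338, 285 and 238 in uterus and 2166, 1683 and 1264 in vagina (log2 difference -2.42 ± 0.25, adjusted p = 2.85e-05). Dkk3, a relative of Dkk2, gave 515, 331 and 353 in uterus and 761, 1014 and 772 in vagina (log2 difference -1.04 ± 0.17, adjusted p = 0.00242). Wif1, which binds Wnt ligands outside the cell, was low on every array and called Absent on all uterus arrays (1.07, 8.13 and 1.22 in uterus and 67.2, 49.01 and 75.7 in vagina, at least 1.65-fold higher in vagina, adjusted p = 0.00432). Sostdc1, an antagonist of BMP and Wnt, was also higher in vagina (at least 3.55-fold higher in vagina, adjusted p = 0.0118), but Sostdc1 missed the threshold without uterus array 1 (adjusted p = 0.0771). Wnt9a and the cell cycle gene Ccnd1, a Wnt target, passed weakly, and omitting single arrays ended the call of Wnt9a for 6 of the 6 (adjusted p up to 0.187, without uterus array 1) and omitting single arrays ended the call of Ccnd1 for 4 of the 6 (adjusted p up to 0.143, without uterus array 2). Wnt9a was called Absent on all 6 arrays, so its difference lies below the detection level. Without oil uterus array 3, 2 ligands and 5 inhibitors or targets passed in the same directions. Without oil vagina array 1 it was 2 ligands and 4 inhibitors or targets, with 1 more of the latter higher in uterus.

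Some targets of hedgehog signalling were higher in vagina. Of 18 hedgehog genes, 3 passed (16.7%, against 3.07% of all genes), all in that direction, while the median of the list was 0.0066 against 0.026 for all genes. Ptch1, the receptor whose own transcription rises when the pathway is active, read 566, 511 and 398 in uterus and 1194, 1666 and 906 in vagina (log2 difference -1.27 ± 0.21, adjusted p = 0.00196). Hhip, a binding protein and target of the pathway, read 39.5, 6.97 and 7.31 in uterus and 122, 143 and 114 in vagina (at least 2.69-fold higher in vagina, adjusted p = 0.0169), and omitting single arrays ended the call of Hhip for 4 of the 6 (adjusted p up to 0.0918, without uterus array 2). Bmp4, a ligand that hedgehog signalling induces in gut and bladder stroma, read 306, 287 and 184 in uterus and 1105, 1325 and 1037 in vagina (log2 difference -2.05 ± 0.22, adjusted p = 3.4e-05). The vagina arrays were higher without overlap for all of these. Gli1, the transcription factor and target, did not pass (84.3, 76.7 and 62.1 in uterus and 158, 177 and 85.9 in vagina, adjusted p = 0.598). The signal transducer Smo gave 1392, 1235 and 1109 in uterus and 1256, 1110.2 and 1097 in vagina, with overlapping arrays (log2 difference 0.103, 95% confidence interval -0.25 to 0.45, adjusted p = 0.92, and 0.802 with the scan day as a block). Without oil uterus array 3, or without oil vagina array 1, 2 of the 18 passed.

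Other members of the BMP and TGF-beta family moved in both directions, 2 of 43 higher in uterus and 4 higher in vagina. Amhr2, the receptor of anti-Müllerian hormone, which in males makes the duct regress, was called Present on 1 uterus array but stood apart in all, with 274, 364 and 541 in uterus and 32.9, 13.2 and 5.09 in vagina (at least 6.77-fold higher in uterus, adjusted p = 0.000149). The vagina arrays were called Absent throughout. Ltbp1, which anchors latent TGF-beta in the matrix, was higher in vagina (358, 271 and 317 in uterus and 683, 797 and 554 in vagina, log2 difference -1.03 ± 0.18, adjusted p = 0.00324). Gdf10, a BMP-family ligand, was higher in vagina too (log2 difference -1.01 ± 0.21, adjusted p = 0.0125), although omitting single arrays ended the call of Gdf10 for 3 of the 6 (adjusted p up to 0.0797, without uterus array 2). The same held for the BMP antagonist gene Chrdl1 (at least 3.08-fold higher in vagina, adjusted p = 0.017), where omitting single arrays ended the call of Chrdl1 for 2 of the 6 (adjusted p up to 0.0956, without vagina array 1). Id3, a target of BMP signalling, was higher in uterus (log2 difference 1.23 ± 0.29, adjusted p = 0.031), and omitting single arrays ended the call of Id3 for 6 of the 6 (adjusted p up to 0.113, without vagina array 1). The family had 1 call higher in uterus and 4 higher in vagina without oil uterus array 3, and 1 and 3 without oil vagina array 1.

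Of 40 genes of stratified epithelium measured, 19 passed as higher in vagina and none as higher in uterus, where 2.06% of all genes passed as higher in vagina. The median log2 difference of the list was -1.09, against 0.026 for all genes. Of the 19 calls, 14 remained whichever of the 6 arrays was left out. Without oil vagina array 1, 19 passed as higher in vagina and 1 as higher in uterus, and without oil uterus array 3, 16 passed as higher in vagina. Trp63 itself was called Present on all vagina arrays and Absent on all uterus arrays, with 57.6, 62.7 and 14.6 in uterus and 195, 339 and 294 in vagina (at least 4.11-fold higher in vagina, adjusted p = 0.00128). None of its 2 further probe sets passed.

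Keratin genes led the differences in favour of the vagina. Krt15, a keratin of basal cells, had the largest difference among the 12393 genes, with 30.96, 56.9 and 82.8 in uterus and 1193, 3161 and 5979.8 in vagina (at least 32.3-fold higher in vagina, adjusted p = 2.95e-05). Krt4, a keratin of the upper layers of mucosal epithelium, read 41.6, 54.6 and 13.4 in uterus and 495, 1080.0 and 3447 in vagina (at least 19.1-fold higher in vagina, adjusted p = 0.000327). The basal pair Krt5 and Krt14 was higher in vagina as well. Krt5 read 21.4, 20.9 and 81.2 in uterus and 581, 959 and 1209.9 in vagina (log2 difference -3.74 ± 0.44, adjusted p = 8.04e-05). Krt14 read 17.1, 11.6 and 67.8 in uterus and 226, 484 and 783 in vagina (at least 6.39-fold higher in vagina, adjusted p = 0.00256). Krt6a, which marks activated or fast-growing stratified epithelium, read 115, 134 and 43.9 in uterus and 483, 826 and 1561 in vagina (log2 difference -2.86 ± 0.38, adjusted p = 0.000324). All 5 keratins were lowest on vagina array 1 and highest on vagina array 3, the array of the second scan day, but no vagina array came down to a uterus array. The part of the scan day in this spread was not tested.

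Adhesion genes of the stratified layers followed. Col17a1, a collagen of hemidesmosomes, read 30.96, 24.4 and 8.93 in uterus and 184, 339 and 359 in vagina (at least 5.46-fold higher in vagina, adjusted p = 0.0007). Pkp1, a desmosomal plakophilin, read 37.4, 32.5 and 29.2 in uterus and 191, 220.5 and 417 in vagina (at least 4.51-fold higher in vagina, adjusted p = 0.000739). Perp, a desmosomal protein and p63 target, read 291, 312 and 234 in uterus and 757, 856 and 805 in vagina (log2 difference -1.44 ± 0.18, adjusted p = 0.000211). Dsp, which links desmosomes to keratin, was Present in both organs and still differed, with 659, 738 and 690.0 in uterus and 2078, 2190.2 and 1482 in vagina (log2 difference -1.403 ± 0.15, adjusted p = 4.29e-05). Sfn, which encodes the epithelial 14-3-3 sigma protein, read 7.47, 12.8 and 13 in uterus and 147, 222 and 473 in vagina (at least 4.92-fold higher in vagina, adjusted p = 0.000739). Ly6d, a surface protein of squamous cells, read 28.8, 98.8 and 15.03 in uterus and 269, 482 and 888 in vagina (at least 6.97-fold higher in vagina, adjusted p = 0.0053). None of these overlapped between organs. The other members past the threshold were Krt17, Anxa8, Dsg2, Cd44, Dst, Pkp3 and Itga6, with log2 differences from -1.84 for Krt17 to -0.77 for Itga6. Of these 7, Dsg2 and Itga6 kept their calls whichever array was left out. None of 5 further probe sets of Dsg2 passed, while the 1 further probe set of Itga6 did. Krt17 fell short with each of the 6 omissions (adjusted p up to 0.205).

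The promoter of Krt5 is shown because p63 is known to act on basal keratin genes. The 250 bases before the gene start, chr15:101712906-101713155 on the minus strand of GRCm38.p6 from RefSeq, contain 1 match to a p53-family half-site. This 10-base pattern has a purine run, then C and G around bases that are each A or T, then a pyrimidine run. It reads alike on both strands. In the Krt5 match the centre is CATG, while the pattern also admits other A or T bases there. The match is in capitals and its first base lies 95 bases before the gene start.
Krt5: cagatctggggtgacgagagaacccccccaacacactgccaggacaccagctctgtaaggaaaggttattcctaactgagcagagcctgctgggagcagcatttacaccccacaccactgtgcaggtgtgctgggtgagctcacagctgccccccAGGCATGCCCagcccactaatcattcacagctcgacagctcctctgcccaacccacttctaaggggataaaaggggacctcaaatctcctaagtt
The pattern was found in 7.13% of 32851 RefSeq mouse promoters of this length and in 6.22% of the 12566 that belong to genes measured. It was found in 7.3% of 233 promoters of genes called higher in vagina and in 8.47% of 118 promoters of genes called higher in uterus. These shares were not tested. A match is a description of these letters and not a bound site.

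Of 39 genes on the simple epithelium list, 13 passed as higher in vagina and none as higher in uterus, with a median log2 difference of -0.77. The list also holds genes of epithelia in general. Epcam, the pan-epithelial adhesion molecule, read 1839, 2235 and 2477 in uterus and 4418, 3969.5 and 5546 in vagina (log2 difference -1.07 ± 0.23, adjusted p = 0.0138), although omitting single arrays ended the call of Epcam for 2 of the 6 (adjusted p up to 0.0864, without uterus array 1). Krt8, the keratin of simple epithelium, read 2944, 3345 and 4147 in uterus and 6659.9, 5206 and 6955 in vagina (log2 difference -0.85 ± 0.17, adjusted p = 0.0103), and omitting single arrays ended the call of Krt8 for 2 of the 6 (adjusted p up to 0.0732, without uterus array 1). Its partner Krt18 did not pass (3971, 3986 and 3799 in uterus and 4289.6, 4514 and 5435 in vagina, adjusted p = 0.339, and 0.141 with the scan day as a block). Both simple keratins were bright on all 6 arrays. Prom1, a protein of apical protrusions, read 2048, 2229.5 and 1828 in uterus and 5840.1, 5253 and 4449.7 in vagina (log2 difference -1.33 ± 0.15, adjusted p = 5.1e-05). Spint1, a protease inhibitor of epithelial surfaces, read 374, 379.9 and 306 in uterus and 728, 809 and 889 in vagina (log2 difference -1.13 ± 0.16, adjusted p = 0.000739). Esrp2, an epithelial splicing factor, was called Present on no uterus array, with 21.4, 46.5 and 88.5 in uterus and 248, 307 and 325 in vagina (log2 difference -2.02 ± 0.35, adjusted p = 0.00347). Cdh1, which encodes E-cadherin, read 441, 506 and 351 in uterus and 1577, 1014 and 676 in vagina, without overlap, and did not pass (adjusted p = 0.0859). Blocking by scan day brought it past the threshold (adjusted p = 0.000318). Without oil vagina array 1, which carried gut transcripts, 9 of the 39 passed, and without oil uterus array 3, 12. Of the 13 calls, 5 remained whichever array was left out.

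**Figure D2:**
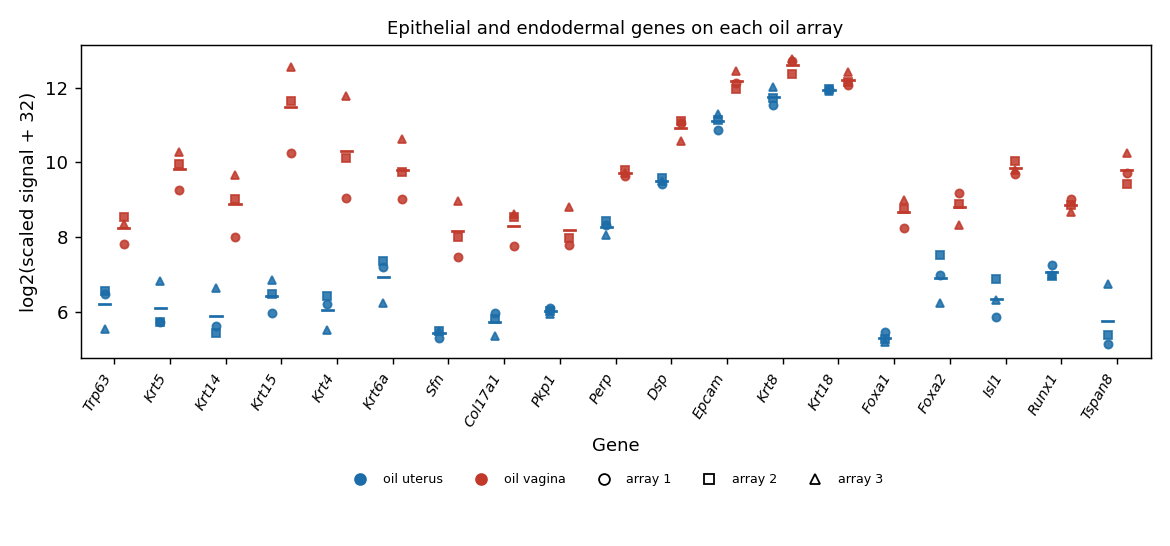
Scaled signal of 19 genes, Isl1 and genes of epithelium and endoderm, on each oil uterus and oil vagina array, on a log2(signal + 32) axis. Points are arrays, with symbols for the array number, and bars are organ means. The basal and squamous genes from Trp63 to Dsp stand higher in vagina. So do the endodermal genes Foxa1 and Foxa2 and the LIM homeobox gene Isl1, while Krt18 differs little.

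Regulators of the urogenital sinus and perineum were higher in vagina in 5 of 35 cases and higher in uterus in 1. Foxa1, a forkhead factor of endoderm such as the sinus epithelium, was near the bottom of the scale in uterus, with 11.7, 6.97 and 4.47 in uterus and 269, 403 and 475 in vagina (at least 7.01-fold higher in vagina, adjusted p = 8.04e-05). Foxa2, its relative, read 93.95, 152 and 43.05 in uterus and 546, 441 and 288 in vagina (log2 difference -1.88 ± 0.32, adjusted p = 0.00306). Isl1, a LIM homeobox factor of the genital tubercle and perineal mesenchyme and of peripheral neurons, read 26.7, 85.97 and 47.1 in uterus and 794, 1014 and 863 in vagina (at least 10.7-fold higher in vagina, adjusted p = 8.04e-05). The uterus arrays were called Absent on all 3 for Foxa1 and Isl1. Runx1, a Runt factor found in basal and vaginal epithelium, read 121, 92.9 and 95.03 in uterus and 488, 432 and 377 in vagina (log2 difference -1.78 ± 0.24, adjusted p = 0.000345). Gata3, a zinc-finger factor of urothelium and the Wolffian duct, passed (at least 2.91-fold higher in vagina, adjusted p = 0.0306), although omitting single arrays ended the call of Gata3 for 5 of the 6 (adjusted p up to 0.119, without uterus array 3). Gata6 was the exception, higher in uterus with 597, 572 and 512 in uterus and 217, 205 and 282 in vagina (log2 difference 1.16 ± 0.204, adjusted p = 0.00378). Without oil uterus array 3, or without oil vagina array 1, 4 genes passed as higher in vagina and Gata6 as higher in uterus. Isl1, which neurons also make, is not on the neural list, whose summed signal was higher on all vagina arrays. The part of nerves in its level was not tested.

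Tspan8, a tetraspanin of epithelial surfaces that is abundant in gut, had one of the largest differences. It read 3.203, 9.29 and 75.5 in uterus and 812, 650.3 and 1184 in vagina (log2 difference -4.04 ± 0.32, adjusted p = 1.97e-06). All vagina arrays stood above all uterus arrays, and it kept its call under each omission of a single array (adjusted p up to 2.85e-05), that of oil vagina array 1 with its gut transcripts included. The 250 bases before the starts of Foxa1 and Tspan8 are shown because each holds 1 match to GTAAACA, a core motif bound by forkhead factors, searched on both strands and printed in capitals (TGTTTAC where it lies on the other strand). They come from RefSeq on GRCm38.p6, at chr12:57546112-57546361 on the minus strand for Foxa1 and chr10:115817034-115817283 on the plus strand for Tspan8.
Foxa1: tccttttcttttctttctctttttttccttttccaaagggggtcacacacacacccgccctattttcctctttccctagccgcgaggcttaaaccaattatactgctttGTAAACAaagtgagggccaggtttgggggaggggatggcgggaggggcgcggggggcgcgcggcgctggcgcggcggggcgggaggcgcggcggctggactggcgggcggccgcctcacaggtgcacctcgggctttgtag
Tspan8: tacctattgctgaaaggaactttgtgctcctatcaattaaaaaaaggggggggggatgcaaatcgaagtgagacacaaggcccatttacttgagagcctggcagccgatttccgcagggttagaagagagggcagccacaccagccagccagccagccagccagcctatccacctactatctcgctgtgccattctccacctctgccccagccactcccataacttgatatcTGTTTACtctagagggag
The first base of the match lies 141 bases before the start of Foxa1 and 18 before that of Tspan8. The motif occurred in 3.17% of all RefSeq mouse promoters of this length and in 2.36% of those of genes measured. Among promoters of genes higher in vagina it occurred in 2.15%, so it was no more common there. It occurred in 1.69% of those of genes higher in uterus.

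Regulators of the Müllerian duct and uterus were divided, 4 of 42 higher in uterus and 6 higher in vagina. Nr2f1, an orphan nuclear receptor (COUP-TFI), was higher in vagina with 345, 163 and 347 in uterus and 1886, 1969.7 and 1339.8 in vagina (log2 difference -2.52 ± 0.27, adjusted p = 3.4e-05). Its close relative Nr2f2 (COUP-TFII), which works in uterine stroma, went the other way with 1585, 1697 and 2216 in uterus and 913, 884 and 1114 in vagina (log2 difference 0.89 ± 0.205, adjusted p = 0.0251), though omitting single arrays ended the call of Nr2f2 for 4 of the 6 (adjusted p up to 0.118, without uterus array 3). The pair thus differed in direction. Twist2, a bHLH factor of mesenchyme, read 786, 604 and 832 in uterus and 2072, 1679 and 1674 in vagina (log2 difference -1.26 ± 0.14, adjusted p = 7.45e-05). Klf4, a factor of epithelial differentiation, read 144, 215 and 153 in uterus and 522, 418 and 331 in vagina (log2 difference -1.17 ± 0.19, adjusted p = 0.00212). Osr1, a factor of the early urogenital mesoderm, was higher in vagina (log2 difference -1.41 ± 0.27, adjusted p = 0.00806), and Osr1 missed the threshold without uterus array 1 (adjusted p = 0.051). Wt1, a factor of coelomic epithelium and duct mesenchyme, was higher in uterus with 1024, 1065 and 938 in uterus and 648, 360.0 and 259 in vagina (log2 difference 1.29 ± 0.27, adjusted p = 0.0128), and omitting single arrays ended the call of Wt1 for 4 of the 6 (adjusted p up to 0.0709, without vagina array 3). Zfpm2, a GATA cofactor, was higher in uterus (log2 difference 1.58 ± 0.32, adjusted p = 0.01), and omitting single arrays ended the call of Zfpm2 for 2 of the 6 (adjusted p up to 0.0573, without uterus array 3). Of the 10 calls, 4 remained whichever array was left out. The list gave 2 calls higher in uterus and 5 higher in vagina without oil uterus array 3, and 3 and 4 without oil vagina array 1.

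Of 22 steroid receptors and estrogen targets, 4 passed, all higher in vagina. These were Igf1, Clca1, Lcn2 and Padi1. The count was 4 without oil vagina array 1, with Lcn2 not among them, and 2 without oil uterus array 3, and 2 of the 4 calls remained whichever array was left out. For Lcn2, a secreted siderophore-binding protein, 4 of the 6 omissions ended the call (adjusted p up to 0.0737), and for Padi1, a peptidylarginine deiminase of squamous epithelium, 2 did (adjusted p up to 0.0715). Igf1, a growth factor of stroma, read 2161, 2155 and 2602 in uterus and 6121, 5796 and 6391 in vagina (log2 difference -1.396 ± 0.14, adjusted p = 2.47e-05). Clca1, a secreted protein of mucous cells, read 4.27, 323 and 4.87 in uterus and 2237, 511 and 965 in vagina (log2 difference -3.78 ± 0.68, adjusted p = 0.00412). Its highest signals in each organ were on vagina array 1 and uterus array 2, the arrays with gut transcripts, and the part of gut in its level was not tested. It kept its call without vagina array 1, but not within the first scan day (adjusted p = 0.0754). Esr1, the estrogen receptor, did not pass, with 252, 203 and 394 in uterus and 164, 122 and 194 in vagina (log2 difference 0.68, 95% confidence interval -0.303 to 1.67, adjusted p = 0.686, and 0.293 with the scan day as a block).

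Of 28 growth genes of the insulin-like and imprinted groups, 6 passed as higher in uterus, 1 (Igf1) as higher in vagina and 21 in neither direction. The ligands Igf1 and Igf2 had opposite directions. Igf2, the fetal growth factor expressed from the paternal allele, read 15479.6, 12933 and 14402 in uterus and 4913, 4863 and 6055 in vagina (log2 difference 1.43 ± 0.15, adjusted p = 3.6e-05). Mest, another gene expressed from the paternal allele, read 8697, 8237 and 9551 in uterus and 4409, 5622 and 5359 in vagina (log2 difference 0.78 ± 0.13, adjusted p = 0.00307). Peg3, a zinc-finger gene of the same class, read 4096, 5435 and 6505 in uterus and 2553, 3321 and 3495 in vagina (log2 difference 0.76 ± 0.15, adjusted p = 0.00811). Plagl1, a zinc-finger factor, was higher in uterus by less (log2 difference 0.52 ± 0.13, adjusted p = 0.0445), and omitting single arrays ended the call of Plagl1 for 5 of the 6 (adjusted p up to 0.156, without vagina array 3). The binding protein genes Igfbp2 (0.61) and Igfbp6 (0.96) passed too, and omitting single arrays ended the call of Igfbp2 for 6 of the 6 (adjusted p up to 0.161, without uterus array 3) and omitting single arrays ended the call of Igfbp6 for 4 of the 6 (adjusted p up to 0.111, without vagina array 2). Without oil uterus array 3, or without oil vagina array 1, 3 genes passed as higher in uterus and 1 as higher in vagina, and 4 of the 7 calls remained whichever array was left out.

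Matrix genes also split. Of 61 measured, 3 passed as higher in uterus and 10 as higher in vagina, and 9 of these 13 calls remained whichever array was left out. The counts were 3 and 10 without oil uterus array 3 and 3 and 11 without oil vagina array 1. Vcan, the large proteoglycan of loose fetal matrix, read 6631, 6332 and 7518 in uterus and 2424, 2607 and 2551 in vagina (log2 difference 1.42 ± 0.104, adjusted p = 8.89e-07). Fn1, fibronectin, read 10826, 9634 and 12086 in uterus and 4729.7, 5230.4 and 6963 in vagina (log2 difference 0.95 ± 0.17, adjusted p = 0.00334). Mmp2, a gelatinase of stroma, read 5481, 5606 and 5709 in uterus and 2746, 3332 and 3566 in vagina (log2 difference 0.803 ± 0.12, adjusted p = 0.00124). These are the 3 uterine ones. On the vaginal side stood Tnc, tenascin C, a matrix glycoprotein of stroma under growing epithelium, with 453, 555 and 434 in uterus and 1792, 1860.3 and 2788 in vagina (log2 difference -2.07 ± 0.26, adjusted p = 0.000191). Matn2, a matrilin, read 1034, 977 and 801 in uterus and 3545, 3769.7 and 2004 in vagina (log2 difference -1.65 ± 0.25, adjusted p = 0.00124). Npnt, nephronectin, a ligand of integrin alpha 8 beta 1 at basement membranes, read 1076, 935 and 846 in uterus and 2472, 2849.9 and 2317 in vagina (log2 difference -1.39 ± 0.16, adjusted p = 6.17e-05). Mfap5 (-1.27), a protein of elastic microfibrils, Ogn (-0.99), a small proteoglycan, and Lamb1 (-0.64), a laminin chain, passed without loss under any single omission. Col8a1, Col12a1, Col14a1 and Thbs2 lost their calls without at least 3 of the arrays. The highest adjusted p was 0.163, for Thbs2 without uterus array 1. Vcam1, an adhesion molecule of the cadherin and integrin list, was higher in vagina (178, 145 and 169.7 in uterus and 509, 635 and 791 in vagina, log2 difference -1.77 ± 0.26, adjusted p = 0.000781).

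Guidance molecules, retinoid and growth factor genes gave few calls. Of the guidance, retinoid, FGF and EGF, and cell cycle lists, 14.3%, 5%, 5.13% and 2.56% passed, against 3.07% of all genes. Of 42 guidance and ephrin genes, 3 passed in each direction. Sema3a, a repellent of axons and vessels, read 1539, 1531 and 1404 in uterus and 555, 533 and 539.6 in vagina (log2 difference 1.41 ± 0.14, adjusted p = 2.47e-05), and it was the only one of the 6 to keep its call under every single omission. The guidance counts were 2 higher in uterus and 0 higher in vagina without oil uterus array 3, and 3 and 1 without oil vagina array 1. Of 20 retinoid genes, 1 passed, Rdh10, which makes retinal for retinoic acid synthesis, higher in uterus with 2236, 2150.5 and 2124 in uterus and 988, 1072 and 913 in vagina (log2 difference 1.11 ± 0.12, adjusted p = 5.04e-05). Of 39 FGF and EGF family genes, 2 passed, both higher in vagina. Erbb3, a neuregulin receptor that Schwann cells and epithelia make, read 507, 583 and 339 in uterus and 973, 942 and 973 in vagina (log2 difference -1.0003 ± 0.18, adjusted p = 0.00387). Fgf7, a stromal ligand for epithelial FGF receptors, was the other (log2 difference -1.05 ± 0.25, adjusted p = 0.0328), and omitting single arrays ended the call of Fgf7 for 5 of the 6 (adjusted p up to 0.136, without uterus array 3). None of 22 Notch genes and none of 22 immediate early genes passed by limma, with 2 and 5 at an unadjusted p below 0.05. With the scan day as a block, 0 and 2 of them passed. Of 39 cell cycle genes, Cenpa passed as higher in uterus (log2 difference 0.71 ± 0.17, adjusted p = 0.0363), but omitting single arrays ended the call of Cenpa for 5 of the 6 (adjusted p up to 0.156, without vagina array 3). The log2 differences of that list had a median of 0.21, and 6 of the 39 were negative.

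The muscle genes that passed were all higher in vagina. Of 19 smooth muscle genes, 3 passed, all in that direction, with a median log2 difference of -0.42. Myh11, the smooth muscle myosin heavy chain, read 247, 214 and 288 in uterus and 1923, 1482 and 2667 in vagina (log2 difference -2.84 ± 0.22, adjusted p = 1.63e-06). Actg2, the enteric smooth muscle actin, read 386, 248 and 185 in uterus and 1252, 927 and 1790.2 in vagina (log2 difference -2.16 ± 0.31, adjusted p = 0.000692). Cnn1, calponin, also passed (log2 difference -1.502 ± 0.31, adjusted p = 0.0119), although omitting single arrays ended the call of Cnn1 for 2 of the 6 (adjusted p up to 0.0641, without vagina array 3). Acta2, the actin of smooth muscle and early myofibroblasts, was high in both organs and did not pass (12649.5, 12779.6 and 11281 in uterus and 15043, 15595 and 20077 in vagina, adjusted p = 0.169). The count was also 3 without oil uterus array 3 or without oil vagina array 1. The summed signal of the list ran from 45492 to 48142 in uterus and from 55533 to 81237 in vagina.

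Of 42 skeletal muscle genes, 6 passed (14.3%, against 3.07% of all genes), all higher in vagina, with a median of -0.97. Here 1 uterus array stood out. Myl1, a fast myosin light chain, read 5.34, 119.7 and 2282 in uterus and 882, 4132 and 3469.5 in vagina and did not pass (adjusted p = 0.202), and uterus array 3 lay within the vaginal range. With the scan day as a block Myl1 passed (adjusted p = 0.0465). Acta1, the skeletal actin, also had uterus array 3 within the vaginal range and did not pass (281, 166 and 3376 in uterus and 1056, 4186 and 3406 in vagina, adjusted p = 0.393, and 0.16 with the scan day as a block). Myog, myogenin, a factor of newly forming muscle fibres, was low on all uterus arrays, array 3 included, with 19.2, 24.4 and 30.9 in uterus and 221, 464 and 776 in vagina (at least 7.28-fold higher in vagina, adjusted p = 0.00387). Tnnc1, a troponin of slow and cardiac muscle, read 82.2, 101 and 109 in uterus and 424, 1263 and 1756 in vagina (log2 difference -2.98 ± 0.399, adjusted p = 0.000327). Actc1, the cardiac actin that fetal muscle also makes, is not on the list and read 249.8, 230.0 and 1419 in uterus and 1803, 4352 and 5169.5 in vagina (log2 difference -2.87 ± 0.54, adjusted p = 0.00632). Myh3, the embryonic myosin heavy chain, passed (log2 difference -3.37 ± 0.7000, adjusted p = 0.0127), but omitting single arrays ended the call of Myh3 for 4 of the 6 (adjusted p up to 0.083, without uterus array 2). The count rose to 12 of the 42 without oil uterus array 3 and was 7 without oil vagina array 1. Whether striated muscle lay in the dissected vagina or came with it cannot be told apart from these arrays.

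Of the muscle genes, the promoter of Actc1 is shown because its actin promoter carries the CArG box, the motif of serum response factor, with CC, a run of 6 A or T, and GG. The 250 bases before its start are chr2:114052876-114053125 on the minus strand of GRCm38.p6 from RefSeq. The match in capitals begins 47 bases before the start and reads on both strands.
Actc1: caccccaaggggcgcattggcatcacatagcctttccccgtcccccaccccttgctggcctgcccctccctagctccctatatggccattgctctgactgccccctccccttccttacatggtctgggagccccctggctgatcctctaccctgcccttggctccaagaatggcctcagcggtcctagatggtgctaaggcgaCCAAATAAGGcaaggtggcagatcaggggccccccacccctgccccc
The box was found in 1.47% of all RefSeq mouse promoters of this length and in 1.34% of those of genes measured. It was found in 8 of 233 promoters of genes higher in vagina (3.43%) and in 2 of 118 of genes higher in uterus (1.69%). These shares are descriptions and were not tested.

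**Figure D3:**
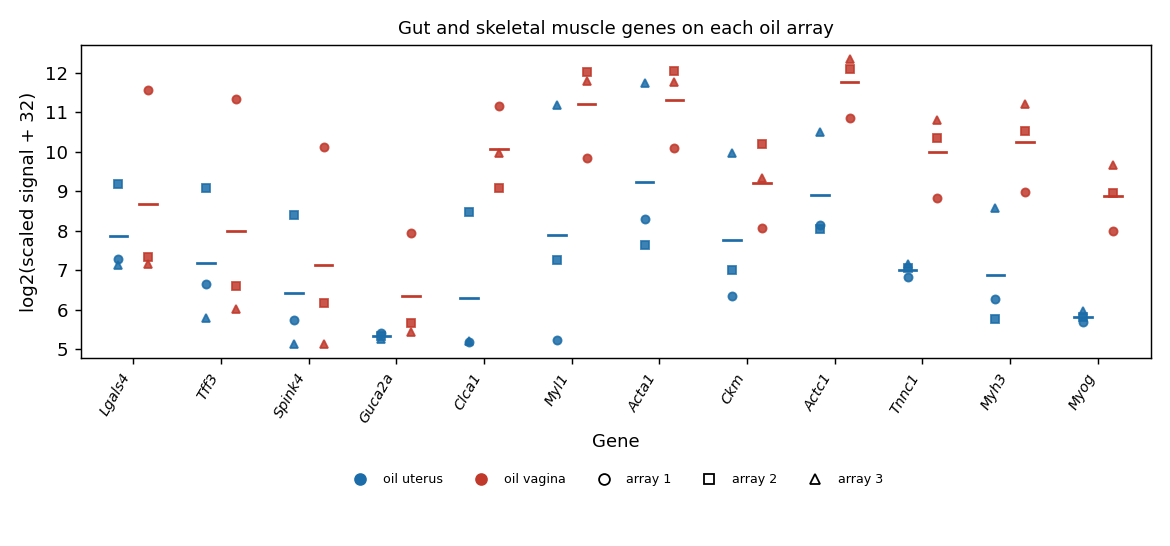
Scaled signal of gut genes (Lgals4 to Guca2a), Clca1 and muscle genes (Myl1 to Myog) on each oil uterus and oil vagina array, on a log2(signal + 32) axis. Points are arrays and bars are organ means; vagina array 1 stands out in the gut genes and uterus array 2 in Lgals4, Tff3 and Spink4, uterus array 3 in Myl1, Acta1 and Ckm but not in Tnnc1 or Myog.

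Nerve genes were higher in vagina for 12 of 38, and none was higher in uterus, with a median log2 difference of -1.09. The summed signal of the list was 5921, 6986 and 4089.8 in uterus and 13498, 12764 and 17207 in vagina, without overlap. Prph, peripherin, the intermediate filament of peripheral neurons, read 7.47, 55.8 and 24.8 in uterus and 599, 580.5 and 909 in vagina (at least 10.2-fold higher in vagina, adjusted p = 1.79e-05). None of its 3 further probe sets passed. Nefl, the light neurofilament chain, read 108, 240.5 and 166 in uterus and 1248, 1210.1 and 1434 in vagina (log2 difference -2.76 ± 0.29, adjusted p = 3.4e-05). Vip, a neuropeptide of parasympathetic nerves, read 52.3, 196 and 42.6 in uterus and 569, 375 and 604 in vagina (at least 4.76-fold higher in vagina, adjusted p = 0.00453). Snap25, a protein of synaptic vesicle release, read 57.6, 23.2 and 25.6 in uterus and 322, 256 and 404 in vagina (at least 5.21-fold higher in vagina, adjusted p = 0.000319). Gfra1, the receptor of glial cell line-derived neurotrophic factor, read 40.6, 27.9 and 26.4 in uterus and 254, 209 and 155 in vagina (at least 3.68-fold higher in vagina, adjusted p = 0.00674). Transcripts of nerve endings, of neuron cell bodies and of glia are on 1 list and were not separated. Chgb and Stmn3 also kept their calls under every single omission, as did Erbb3, while Nefm, Npy, Tubb3 and Gap43 lost theirs without at least 3 arrays each. Their highest adjusted p was 0.134, for Gap43 without vagina array 3. The count was 9 of the 38 without oil uterus array 3 and 11 without oil vagina array 1.

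Mesothelial genes, which mark the outer lining of the organs, were higher in uterus for 6 of 14, and none was higher in vagina, with a median log2 difference of 0.76. The list shares 8 of its genes with other lists. Upk3b, a mesothelial uroplakin, had the largest difference in favour of the uterus among the 12393 genes, each read from 1 probe set. It gave 1604, 2092 and 2289 in uterus and 256, 143 and 153 in vagina (log2 difference 3.25 ± 0.29, adjusted p = 7.14e-06). Gpm6a, a membrane glycoprotein of mesothelium and neurons, read 199.6, 208 and 256 in uterus and 83.6, 92.4 and 82.6 in vagina (log2 difference 1.09 ± 0.22, adjusted p = 0.01). Rspo1 and Wt1 are described above, and Cldn15 and Igfbp6 passed with weaker support. Of the 6 calls, 3 remained whichever array was left out, those of Upk3b, Gpm6a and Rspo1. The count was 4 of the 14 without oil uterus array 3 and 5 without oil vagina array 1. The summed signal of the list was 8849, 9443 and 9643 in uterus against 6574, 5411 and 7799.5 in vagina.

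Of 23 endothelial genes, 3 passed as higher in uterus, and 1 of the 23 had a negative log2 difference. Lyve1, the hyaluronan receptor of lymphatic vessels and some macrophages, read 730.2, 452 and 535 in uterus and 173, 111 and 140.5 in vagina (log2 difference 1.79 ± 0.32, adjusted p = 0.00388). Pecam1 and Esam, junction proteins of blood vessels, passed with smaller differences (0.68 and 0.61). However, omitting single arrays ended the call of Pecam1 for 4 of the 6 (adjusted p up to 0.132, without vagina array 1) and omitting single arrays ended the call of Esam for 6 of the 6 (adjusted p up to 0.107, without uterus array 1). Only 1 endothelial gene passed without oil uterus array 3 or without oil vagina array 1. Of 31 macrophage and leukocyte genes, 1 passed as higher in uterus and 2 as higher in vagina (9.68% in either direction, against 3.07% of all genes). F13a1, coagulation factor XIII of tissue macrophages, read 595, 668 and 649.8 in uterus and 326, 317 and 244 in vagina (log2 difference 1.04 ± 0.196, adjusted p = 0.0064). Mpeg1 and Cd14 were higher in vagina (-1.53 and -0.95), and each fell short for at least 4 of the 6 omissions (adjusted p up to 0.117 and 0.107). The leukocyte counts were 2 higher in uterus and 1 higher in vagina without oil uterus array 3, and 1 and 0 without oil vagina array 1. Ptprc, the pan-leukocyte antigen CD45, read 123, 130.1 and 93.4 in uterus and 53.5, 121 and 106 in vagina, with overlap (adjusted p = 0.86).

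The mast cell list held genes that went in opposite directions. Hdc, the enzyme that makes histamine, was higher in vagina with 12.8, 33.7 and 88.5 in uterus and 1287, 914 and 641 in vagina (at least 11.6-fold higher in vagina, adjusted p = 2.85e-05). Cma1 and Cpa3, proteases of mast cell granules, did not follow it. Cma1 read 737, 790.0 and 456 in uterus and 400.3, 424 and 251 in vagina (adjusted p = 0.23). Cpa3 read 578, 633 and 592 in uterus and 308, 349 and 276 in vagina (adjusted p = 0.179). Both leaned to the uterus and passed in that direction when scan day was blocked (adjusted p = 0.0117 and 0.0123). Srgn, the granule proteoglycan that mast cells, other blood cells and endothelium make, was higher in uterus with 1618, 1567 and 1395 in uterus and 384, 432 and 389 in vagina (log2 difference 1.85 ± 0.21, adjusted p = 7.69e-05).

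The rule for large differences also named the following genes, of which Moxd1 is on the oviduct secretory list, Tex15 on the ovary and oocyte list and the others on none. Higher in uterus were A2m, a plasma protease inhibitor, with 1602, 1487 and 1733 in uterus and 377, 405 and 325 in vagina (log2 difference 2.03 ± 0.14, adjusted p = 8.89e-07), and Podxl, a sialomucin of mesothelium, vessels and podocytes, with 1309.9, 1396 and 1596 in uterus and 452, 416 and 446 in vagina (log2 difference 1.64 ± 0.1997, adjusted p = 0.000131). Lbp, which binds bacterial lipopolysaccharide, read 1076, 1186 and 1354 in uterus and 417, 467 and 276 in vagina (log2 difference 1.59 ± 0.19, adjusted p = 0.000115). Moxd1, a monooxygenase-like protein, read 4779.5, 4508 and 3882 in uterus and 1943, 1491 and 878 in vagina (log2 difference 1.65 ± 0.26, adjusted p = 0.00152). Ptgds, a prostaglandin D synthase, read 1386, 1328 and 1088 in uterus and 417, 413 and 270.0 in vagina (log2 difference 1.72 ± 0.26, adjusted p = 0.00112). Tex15, a gene of germ cells that these arrays call Present in both organs, read 1164, 1044 and 1234 in uterus and 351, 299.7 and 241 in vagina (log2 difference 1.85 ± 0.22, adjusted p = 8.04e-05). Each of these 6 separated the organs on all arrays. Cd83 (1.67), C1s1 (1.69), Prkcb (1.498) and Serpinb6b (at least 3.76-fold) belong with them, and Serpinb1a (1.69) too, though omitting single arrays ended the call of Serpinb1a for 4 of the 6 (adjusted p up to 0.0671, without uterus array 2). Higher in vagina were Pdlim3, a muscle PDZ-LIM protein, with 232, 214 and 330.2 in uterus and 2300.4, 2642 and 2212 in vagina (log2 difference -3.07 ± 0.203, adjusted p = 8.34e-07), and Pnliprp1, a lipase-related protein of pancreas, with 11.7, 17.4 and 8.12 in uterus and 356, 524 and 307 in vagina (at least 7.24-fold higher in vagina, adjusted p = 2.47e-06). Psca, a surface antigen of bladder and prostate epithelium, was named as a member of the bladder and urethra list, of which 2 of 8 passed, both higher in vagina, and 1 without oil vagina array 1 or without oil uterus array 3. It read 30.96, 25.6 and 7.72 in uterus and 149, 829 and 1449 in vagina (at least 10.6-fold higher in vagina, adjusted p = 0.00106). Its arrays did not overlap, but it was called Present on 2 vagina arrays.

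**Figure D4:**
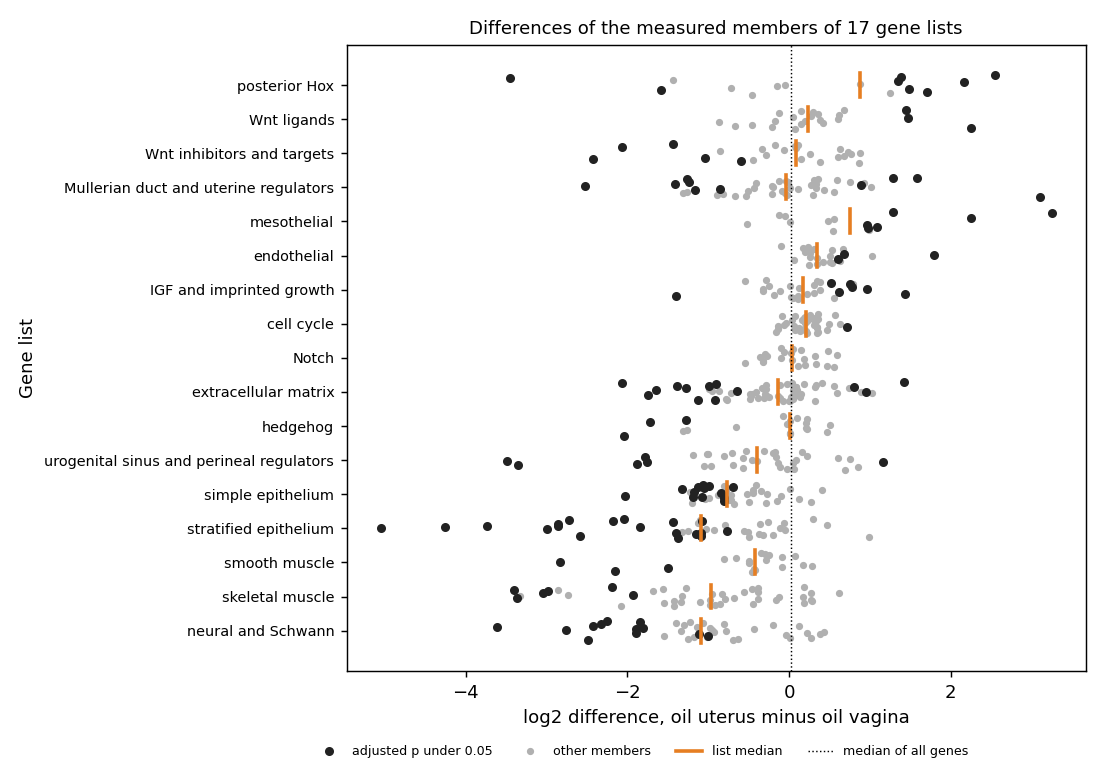
Log2 differences, oil uterus minus oil vagina, of the measured members of 17 gene lists, 1 point per gene. Dark points passed an adjusted p of 0.05, orange bars are list medians and the dotted line is the median of all genes (0.026); dark points lie left of 0 for every called gene of the stratified, simple, muscle and nerve lists and right of 0 for those of the mesothelial and endothelial lists.

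Probe sets called within the first scan day could be followed on the second, whose arrays had no part in those calls. Of 718 such probe sets, 647 (90.1%) had the same direction on the second day, against 58.3% of all probe sets. The median size of their difference was 1.03 on the first day and 0.78 in the same direction on the second. Krt15 had a difference of -4.72 on the first day and -5.71 on the second, Hoxd13 -3.42 and -3.53, and Upk3b 3.05 and 3.65. Other differences as large on the first day were small on the second. The skeletal muscle gene Myl1 went from -4.696 to -0.598, Tnnc2, a fast muscle troponin, from -4.36 to 0.14, and Mylpf, a fast myosin light chain, from -3.998 to -0.22. The second day's uterus array is array 3, which carried skeletal muscle transcripts. All 6 genes were chosen for this after their values were seen. Since a single array of each organ stands behind the second day, these values have no error of their own. The share higher in uterus was 34% of the 547 calls, 42.9% with the scan day as a block and 43.2% within the first day, so the vaginal majority was smaller there.

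**Figure D5:**
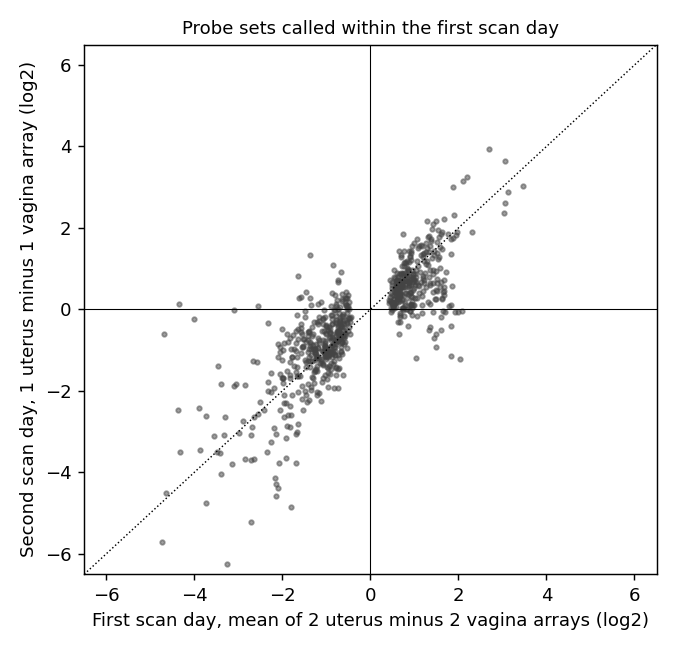
Log2 difference, uterus minus vagina, of the 718 probe sets called within the first scan day, on that day (horizontal axis, 2 arrays per organ) and on the second day (vertical axis, 1 array per organ). The dotted line marks equal values; 647 points lie in the quadrants where both days have the same sign.

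The organ difference of the named genes was also set against that between DES uterus and DES vagina, which has 3 and 2 arrays, since DES vagina array 1 is of another chip type. The question was whether the difference seen at birth in oil was the same under DES. Over all probe sets the difference of differences passed for 39 (0.172%), and 11 of the 155 named genes that passed in oil were among them. These 155 were chosen by their oil difference, and the same oil arrays enter this test. That choice favours large values in the oil direction, so 11 of 155 cannot be set against the share of all probe sets. Dkk2 read 1183, 1290.1 and 938 in uterus and 1213 and 1125 in vagina on the DES arrays, level between the organs, where oil gave a log2 difference of -2.42 (difference of differences -2.37 ± 0.37, adjusted p = 0.0116). Wnt4 read 672, 676 and 501 in uterus and 952 and 1099 in vagina on the DES arrays (2.19 ± 0.28, adjusted p = 0.00244). Tspan8 read 995, 883 and 933 in uterus and 1139 and 1249 in vagina (-3.704 ± 0.48, adjusted p = 0.00244). For these 3 genes the standing of the organs relative to each other differed between oil and DES. The parts of uterus and of vagina in this were not tested. Krt5, Foxa1 and Hoxd13 did not pass this test (adjusted p = 1 for each).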

How the data were processed

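RNA of whole organs was hybridized to Affymetrix MOE430A arrays. The deposited value table holds for each array the authors' signal intensity on a linear scale. In the single-array files, per the file headers, each signal has beside it a call and the detection p-value that the authors' software gave. For the 16 arrays used from them, the deposited signals equal those of the table. That of oil oviduct array 1 is a copy of another array's, DES oviduct array 1, so its calls were not used. The sources used here do not give the software and scaling behind the authors' signals. The 18th sample, of another chip type, was not used.

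The 64 AFFX controls were left out. Each array was scaled to a mean of 500 after trimming 2% at each end, and log2(signal + 32) was taken. Before scaling this mean was 26.5 to 137 on the 6 arrays, and 52.7% to 66.3% of probe sets were called Present. It was highest on array 3 of each organ. Of 22626 probe sets, 20380 carry 1 gene symbol, 691 several and 1555 none, and a gene is represented by its probe set with the highest mean. Of the 155 named genes past the threshold, 66 have further probe sets. A further one passed in the same direction for 28 genes and in the opposite direction for 0.

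The fit used limma 3.58.1 (R 4.3.3) over all 17 MOE430A arrays, 1 mean for each of 6 groups, a variance trend, 11 residual and 5.64 prior degrees of freedom, and Benjamini-Hochberg adjustment over all probe sets at 0.05. The number of arrays limits the precision, and with 3 against 3 an exact permutation test could not go below 0.1. A bound on a fold sets each Absent array at its own signal or at its lowest Present signal, whichever is higher. Named genes were the 20 largest differences in each direction among genes that passed with Present calls on all arrays of the higher organ and no overlap, plus up to 8 passing and 4 other members of each list, and runs of at least 3 neighbouring genes. The comparison, its members and the gene lists were chosen with earlier results of these data known. The procedure was tested on simulated data.

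Same-numbered uterus and vagina arrays were checked for pairing by the correlation of their deviations from the organ means, which was 0.20, 0.10 and 0.47 for numbers 1, 2 and 3. Numbers 1 and 2 crossed gave 0.14 and 0.197, between the values of the same-numbered pairs 1 and 2 of that scan day. Pairs across scan days gave -0.20 to -0.33. Number 3 alone was scanned on the second day, so for it array number and scan day cannot be told apart. Both blocked counts are given. Alternatives were quantile normalization, median centring, pseudocounts of 1 and 100, filters on calls, other sets of arrays, no trend, array weights, blocks, no moderation and each array left out. Leaving out the arrays with conflicting records, or the oil oviduct and uterus arrays with skeletal muscle transcripts, was added after the data were seen.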

Additional observations from a re-analysis of the deposited data

Results flagged for a closer look

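The difference between uterus and vagina in oil was larger than, or unlike, the difference between the same organs in DES for 11 of the 155 genes named in the report, by the limma test of the difference of the differences. In the 5 genes higher in oil uterus this value, oil minus DES, was 3.05 for Amhr2, 2.19 for Wnt4, 1.23 for Vcan, 1.23 for Sema3a and 1.02 for Mmp2 on the log2 scale. In the 6 genes higher in oil vagina it was -3.79 for Hdc, -3.704 for Tspan8, -2.62 for Myh11, -2.37 for Dkk2, -1.86 for Runx1 and -1.28 for Igf1. Adjusted p-values ran from 0.00244 to 0.0471. The 155 genes were chosen by the oil difference that is part of this test, which favours values in the oil direction. The DES vagina has 2 arrays, 1 from each scan day, and the DES uterus 3. In DES none of the 11 passed between the organs (smallest adjusted p = 0.15, for Wnt4, which leaned to the vagina). Amhr2 read 9.86, 24.7 and 12.2 in uterus and 16.7 and 10.4 in vagina and Hdc 12.04, 17.4 and 14.3 in uterus and 23.4 and 4.34 in vagina on the DES arrays, low in both organs.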

How the results depend on the processing

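The count of 547 probe sets fell to 311 when only the 6 arrays were fitted, and rose to 1157 with the replicate block and to 1197 with the scan day as a block. It ranged from 343 (without oil uterus array 1) to 439 (without oil uterus array 3) when 1 array was left out. Under the other alternatives it lay between 372 and 734. The 11 differences from DES became 24 with the scan day as a block. All 155 named genes that passed kept direction and call under both blocks, and none changed direction under any alternative. The fewest kept their call, 108, when only the 6 arrays were fitted, and 115 to 126 did with 1 array left out. Without oil oviduct arrays 1 and 3 and oil uterus array 3, which carried skeletal muscle transcripts, 424 probe sets passed. The vagina arrays, which carried such transcripts too, were all kept in that fit. Without the arrays with conflicting records 462 passed. Dim probe sets limit what can be read: 3043 of the 12393 genes had no Present call on any of the 6 arrays. The causes of these shifts were not tested.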

Other observations

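Besides the Hoxd genes, 1 other run of more than 3 neighbouring genes passed in the same direction. Tnni1, Lad1, Tnnt2 and Pkp1 follow each other among the measured genes of chromosome 1, and all were higher in vagina. They belong to different tissues. Tnni1 and Tnnt2 encode troponins of slow and cardiac muscle, Lad1 an anchoring filament protein of epithelial basement membranes and Pkp1 a desmosomal protein of stratified epithelium. Tnni1 read 10.7, 47.6 and 124 in uterus and 413, 1003 and 1316 in vagina (at least 9.003-fold higher in vagina, adjusted p = 0.00165). Tnnt2 read 93.95, 73.2 and 57.7 in uterus and 260.5, 424 and 684 in vagina (at least 4.32-fold higher in vagina, adjusted p = 0.00731). Lad1 read 338, 437 and 340.3 in uterus and 810.2, 893 and 917 in vagina (log2 difference -1.17 ± 0.17, adjusted p = 0.000752). All 3 separated the organs without overlap, and uterus array 3, with its muscle transcripts, was the highest uterus array for Tnni1 and the lowest for Tnnt2.

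Mitf, a factor of pigment cells, mast cells and other lineages, was higher in uterus with 840.2, 914 and 997 in uterus and 382, 529.6 and 352 in vagina (log2 difference 1.08 ± 0.19, adjusted p = 0.00387), the only one of 9 melanocyte list genes to pass. Of 9 oviduct secretory genes, Moxd1 and Ecrg4 passed, both higher in uterus. Ecrg4 read 426, 505 and 382 in uterus and 138, 113 and 273 in vagina (log2 difference 1.25 ± 0.21, adjusted p = 0.00223).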
